A study of Mus musculus with 34 samples.

Results

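RNA levels of the cell cycle inhibitors, the Rb family and p53 were followed in brown preadipocytes that had been made to divide indefinitely with SV40T. The genes were the Cip/Kip inhibitors *Cdkn1a* (p21) and *Cdkn1b* (p27), the Ink4 inhibitors *Cdkn2a* (p16Ink4a, with p19Arf), *Cdkn2b* (p15) and *Cdkn2c* (p18), the pocket protein genes *Rb1*, *Rbl1* and *Rbl2*, and *Trp53* with *Mdm2*. They were chosen by name and make 10 of the 23109 genes listed in the deposited files. All 10 had an RPKM of at least 1 in each of the 14 RNA-Seq libraries. RPKM divides the reads of a transcript by its length and by the library's depth, so levels of different genes can be set side by side.

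The cells carried histone H3.3 or its K36M mutant, in which lysine 36 is replaced by methionine, delivered by retrovirus. RNA of both was taken before adipogenesis (D0), during it (D2) and after it (D7). In a second experiment the same kinds of cells also expressed PPARγ from a retrovirus and received DMSO or the PPARγ ligand rosiglitazone (Rosi). The labels give time 0 for the DMSO and 24 h for the Rosi libraries, whereas the paper describes DMSO or Rosi for 24 h. Which of these holds for the DMSO cells is not settled here. If they were collected at time 0, the ligand and the 24 h cannot be told apart. In the experiment on *Nsd2*, cells received lentiviral control (Ctrl) or *Nsd2* knockdown (KD) shRNA and were collected at D0 and D2. Adipogenesis was started, per the labels at confluence, with insulin, T3, IBMX, dexamethasone and indomethacin, whereas the PPARγ cells were sub-confluent. All cells are labelled as C57BL/6J brown preadipocytes of newborn pups with a floxed glucocorticoid receptor gene. The labels mention a control and a Cre vector without saying which one these cells had received, while the paper describes preadipocytes of WT mice. Each condition was 1 library, so no difference has a replicate check and no test between conditions was made.

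The proteins encoded by these genes act at the point in G1 where a cell commits to division. Cyclin D with Cdk4 or Cdk6, and then cyclin E with Cdk2, phosphorylate the pocket proteins, which releases E2F factors and starts S-phase genes. The Ink4 proteins bind Cdk4 and Cdk6, and the Cip/Kip proteins bind cyclin-Cdk complexes more widely. p53 activates *Cdkn1a* and *Mdm2*, Mdm2 marks p53 for destruction, and p19Arf restrains Mdm2. Preadipocytes leave the cell cycle as they become adipocytes, and pocket proteins and Cdk inhibitors are known players in that exit. SV40 large T antigen binds p53 and the pocket proteins, so these cells model the regulation of the RNAs and not an intact p53 or Rb pathway. RNA levels here say nothing of the amounts or phosphorylation of the proteins.

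Mapped reads ranged from 12213559 to 24365867 per library. Each RPKM could be turned back into whole reads, and the 10 genes had between 127 and 11275 reads per library. The intervals given below are 95% intervals of these reads and cover counting error only, so they compare 1 library with another and not the conditions. A change is called up-regulated or down-regulated when the RPKM ratio was over 2-fold and the RPKM was at least 1 in at least 1 of both libraries. *Nsd2* had an RPKM of 19.9 and 29.0 in Ctrl cells at D0 and D2 and of 5.85 and 7.01 in KD cells. The 7 adipocyte markers summed to an RPKM of 60.2, 3705 and 3644 in WT cells at D0, D2 and D7, of 37.5, 1646 and 230 in K36M cells, of 42.3 and 1427 in Ctrl cells, and of 34.2 and 58.1 in KD cells. They summed to 216 and 3165 in PPARγ WT cells with DMSO and Rosi and to 152 and 1245 in PPARγ K36M cells. Most of the sum in WT cells was *Fabp4*, which went from 3249 at D2 to 2644 at D7. Over the same step in WT cells *Adipoq* rose from 6.16 to 287, *Plin1* from 36.8 to 144 and *Cidec* from 138 to 236. *Pparg* went from 66.7 to 101 and *Cebpa* from 208 to 232. *Ucp1*, the brown fat uncoupling protein, was at or below 0.194 in each library. The 4 macrophage, 4 endothelial and 6 muscle markers summed to at most 3.11, 2.47 and 0.425, and *Ptprc*, the pan-leukocyte marker, was at or below 0.0391. In bulk RNA, fewer cells of a type and less RNA per cell cannot be told apart.

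*Cdkn2a* is a single gene with 2 first exons that give proteins in different reading frames. The coding parts of both first exons are shown because the difference between them decides which inhibitor a read stands for. They were read from the mm9 genome on the minus strand, with the start codon in capitals. p16Ink4a begins in exon 1α, at chr4:88927890-88928015, and p19Arf in exon 1β, at chr4:88940238-88940427.
p16Ink4a exon 1α: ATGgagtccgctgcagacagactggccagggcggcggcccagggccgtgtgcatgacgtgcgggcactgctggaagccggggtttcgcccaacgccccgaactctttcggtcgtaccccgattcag
p19Arf exon 1β: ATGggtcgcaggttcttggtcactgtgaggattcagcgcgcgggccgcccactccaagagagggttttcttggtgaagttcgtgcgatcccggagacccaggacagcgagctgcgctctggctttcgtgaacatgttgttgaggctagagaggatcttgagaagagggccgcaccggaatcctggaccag

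*Cdkn1a* and *Cdkn2a* had the highest levels per length of the 10 genes, and *Rb1*, *Rbl1* and *Rbl2* were among the lowest. *Cdkn1a* and *Cdkn2a* took the first 2 places in 13 of the 14 libraries, *Cdkn1a* being highest in 9 and *Cdkn2a* in 5. The exception was PPARγ WT DMSO, where *Trp53* stood between them at 80.8 RPKM, close to the 76.1 of *Cdkn2a*. *Trp53* and *Mdm2* were among the first 4 in 12 libraries. *Rb1* or *Rbl2* was lowest in 13 libraries, and in KD cells at D0 it was *Rbl1*. Of the 9 neighbouring pairs in each library's order, between 0 and 4 had overlapping counting intervals. Those overlapping at the top were *Cdkn1a* and *Cdkn2a* in K36M cells at D0 and D2 and in KD cells at D2. Over the libraries, *Cdkn2c* had the widest range, 9.72-fold, followed by *Cdkn2b* with 7.45-fold, and *Trp53* the narrowest, 2.68-fold.

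**Figure D1:**
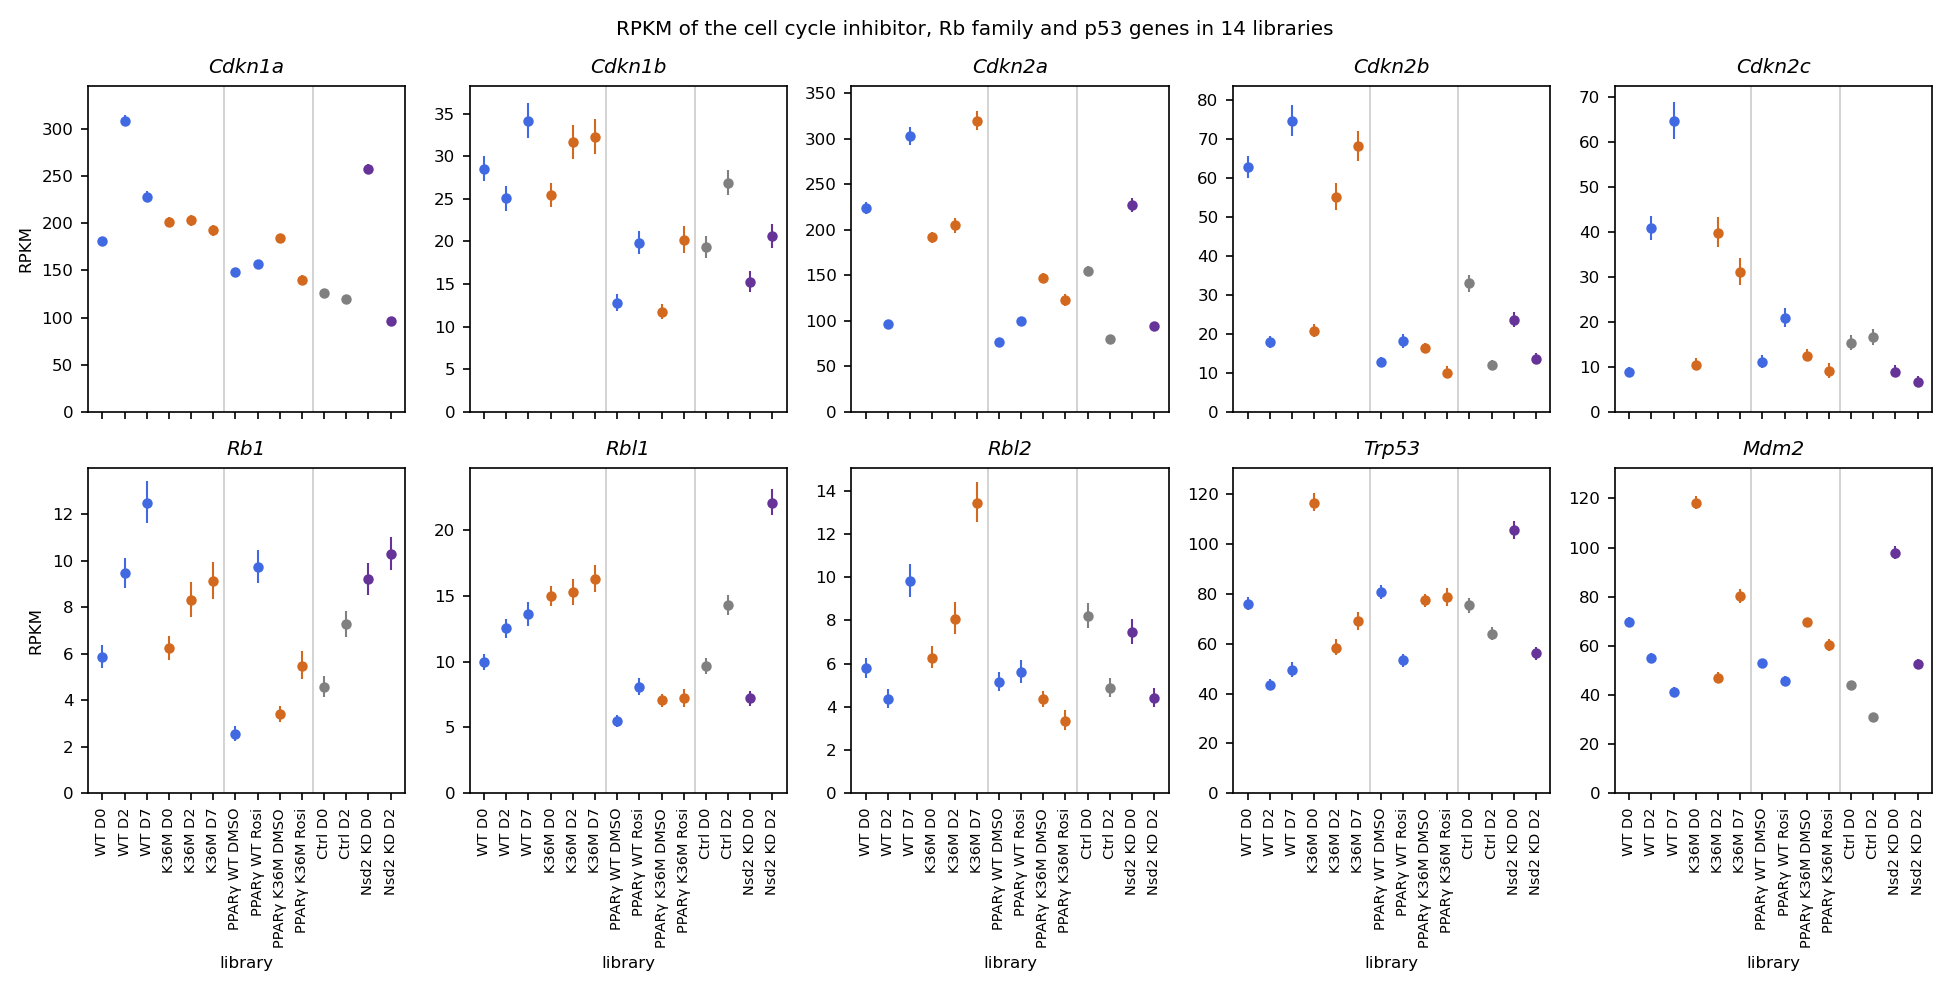
RPKM (linear axis from 0) of each of the 10 genes in the 14 libraries, 1 point per library, with 95% counting intervals as bars and grey lines between the 3 experiments. Blue points are WT, orange K36M, grey Ctrl and purple *Nsd2* KD cells. *Cdkn2a* and *Cdkn2b* were low in WT cells at D2 (96.0 and 17.9) and higher in K36M cells at D2 (205 and 55.2).

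*Cdkn2a* (p19Arf transcript NM_009877, gene at chr4:88920377-88940557, minus strand, mm9) fell and rose again in WT cells. WT cells held an RPKM of 224, 96.0 and 303 at D0, D2 and D7, while K36M cells held 192, 205 and 320. It was 155 and 79.7 at D0 and D2 in Ctrl cells and 227 and 94.2 in KD cells. The dip at D2 was thus seen in 3 of the 4 cell populations, and K36M cells at D2 stood above the other D2 libraries. From D0 to D2 the ratio was -1.22 on the log2 scale in WT cells (interval -1.30 to -1.14) and -1.27 in KD cells (-1.36 to -1.18), both called. In Ctrl cells it was -0.96 (-1.05 to -0.86), which missed the 2-fold threshold, and in K36M cells it was 0.10, or -0.0067 for the p16Ink4a transcript. At D2, K36M cells had 2.13-fold more than WT cells, a log2 ratio of 1.09 (1.00 to 1.18). With DMSO and then Rosi, PPARγ WT cells held 76.1 and 99.4 and PPARγ K36M cells 147 and 123, and none of these ratios was called.

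*Cdkn2b* (NM_007670, chr4:88952198-88956941, minus strand) lies next to *Cdkn2a*. Its RPKM was 62.9, 17.9 and 74.8 in WT cells at D0, D2 and D7 and 20.8, 55.2 and 68.2 in K36M cells. It was 33.0 and 11.9 at D0 and D2 in Ctrl cells and 23.6 and 13.7 in KD cells. WT, Ctrl and KD cells were lower at D2 than at D0, and K36M cells were higher. The log2 ratio from D0 to D2 was -1.81 in WT cells (-1.96 to -1.67), -1.47 in Ctrl cells (-1.65 to -1.28), -0.79 in KD cells (-0.99 to -0.59, not called) and 1.41 in K36M cells (1.26 to 1.56). K36M cells therefore had 3.03-fold less *Cdkn2b* than WT cells at D0 and 3.09-fold more at D2, with log2 ratios of -1.60 (-1.74 to -1.46) and 1.63 (1.47 to 1.79). At D7 the ratio was -0.13. The 5 preadipocyte markers, all detected in each library, were each lower at D2 than at D0 in WT, Ctrl and KD cells. They summed to an RPKM of 328, 56.0 and 289.8 in WT and 134, 131 and 630.1 in K36M cells at D0, D2 and D7. At D0 and D2 the sums were 193 and 38.3 in Ctrl and 226 and 36.4 in KD cells, with *Dlk1* alone at 171 in KD cells at D0. In K36M cells the flat sum hid changes both ways from D0 to D2. *Pdgfrb* (41.0 to 14.5), *Cd34* (2.72 to 1.81) and *Dlk1* (21.7 to 17.4) fell there, while *Pdgfra* (8.30 to 11.2) and *Ly6a* (60.5 to 86.3) rose. The part of these markers in the *Cdkn2a* and *Cdkn2b* values was not tested. With DMSO and then Rosi, *Cdkn2b* was 12.8 and 18.1 in PPARγ WT cells but 16.3 and 10.0 in PPARγ K36M cells, and no ratio was called. From D2 to D7 in WT cells *Cdkn2a* and *Cdkn2b* were up-regulated 3.15-fold and 4.18-fold, with log2 ratios of 1.66 and 2.06. In K36M cells over the same days the log2 ratios were 0.64 and 0.31.

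*Cdkn2c* (NM_007671, chr4:109333481-109339794, minus strand) lies on the same chromosome, away from *Cdkn2a* and *Cdkn2b*. It was the member with the largest increase at D2. Its RPKM was 8.75, 40.8 and 64.7 in WT cells at D0, D2 and D7 and 10.5, 39.8 and 31.0 in K36M cells. It was 15.3 and 16.6 in Ctrl cells and 8.92 and 6.65 in KD cells at D0 and D2. The increase from D0 to D2 was 4.66-fold in WT cells, a log2 ratio of 2.22 (2.00 to 2.45), and 3.80-fold in K36M cells, where the log2 ratio was 1.93 (1.70 to 2.16). In Ctrl cells the ratio was 0.11, so the control cells of both experiments did not show the same change. K36M cells had 2.09-fold less than WT cells at D7, a log2 ratio of -1.06 (-1.23 to -0.89). KD cells had 2.49-fold less than Ctrl cells at D2, a log2 ratio of -1.31 (-1.61 to -1.02), at 130 reads in KD cells. With DMSO and then Rosi, PPARγ WT cells held 11.1 and 20.9 and PPARγ K36M cells 12.5 and 9.07. With Rosi, K36M cells had 2.31-fold less than WT cells, a log2 ratio of -1.21 (-1.51 to -0.91). Rosi in WT cells gave a log2 ratio of 0.92, which was not called.

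**Figure D2:**
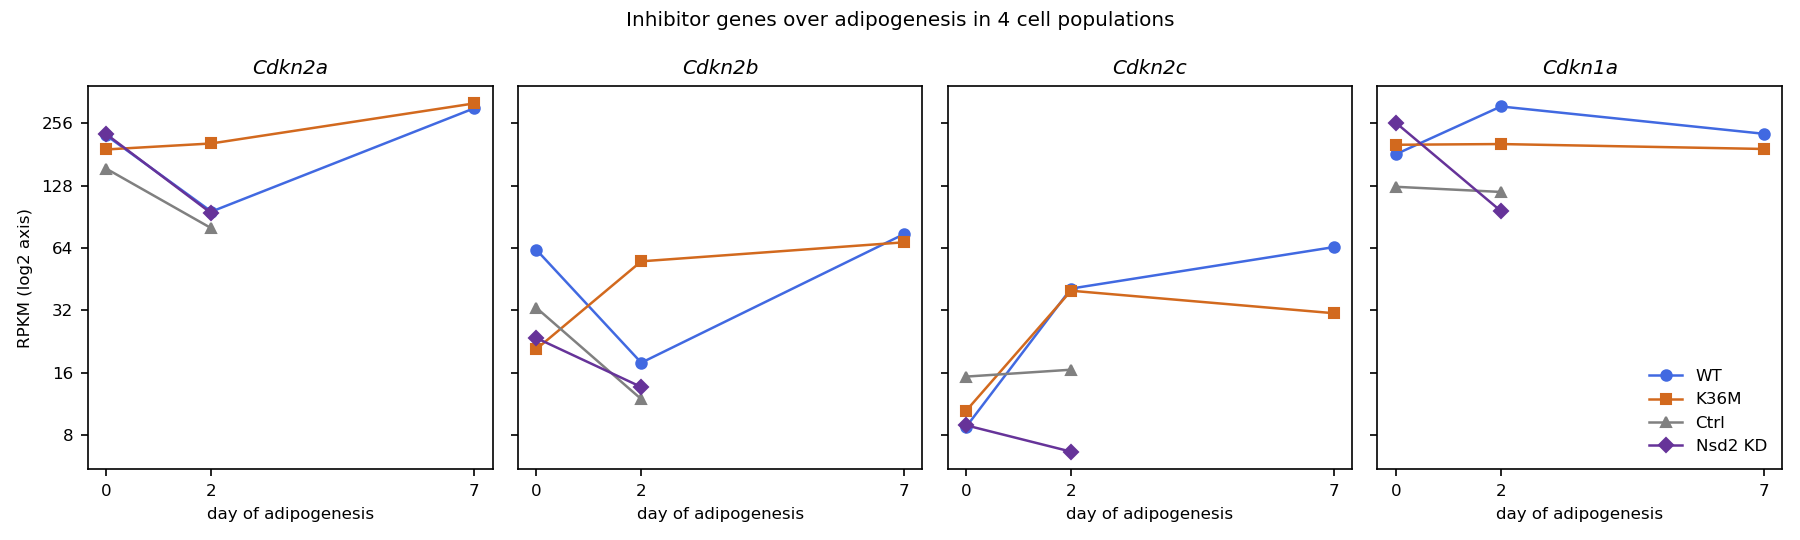
RPKM (log2 axis) of *Cdkn2a*, *Cdkn2b*, *Cdkn2c* and *Cdkn1a* against the day of adipogenesis in WT, K36M, Ctrl and *Nsd2* KD cells, 1 library per point. *Cdkn2a* and *Cdkn2b* dip at D2 in WT but not K36M cells, and *Cdkn2c* rises at D2 in WT and K36M cells from 8.75 and 10.5 to 40.8 and 39.8.

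*Cdkn1a* (NM_007669, chr17:29227924-29237667, plus strand), a p53 target whose protein inhibits cyclin-Cdk complexes, was high in all libraries. Its RPKM was 182, 309 and 228 in WT cells at D0, D2 and D7 and 202, 203 and 193 in K36M cells. It was 127 and 119 in Ctrl cells and 258 and 96.6 in KD cells at D0 and D2. KD cells at D0 and WT cells at D2 were the highest and KD cells at D2 the lowest. At D0 KD cells had 2.04-fold more *Cdkn1a* than Ctrl cells, with a log2 ratio of 1.03 (0.98 to 1.08) whose interval crosses the threshold. At D2 the ratio was -0.31. Within KD cells the change from D0 to D2 was -1.42 (-1.48 to -1.36), against -0.08 in Ctrl cells. The 149 and 157 of the PPARγ WT cells and the 185 and 140 of the PPARγ K36M cells, with DMSO and Rosi, gave no call.

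*Cdkn1b* (NM_009875, chr6:134870419-134875531, plus strand), which restrains cyclin E with Cdk2, was not called in any comparison. Its RPKM at D0, D2 and D7 was 28.6, 25.1 and 34.2 in WT and 25.4, 31.6 and 32.2 in K36M cells. The Ctrl and KD libraries held 19.3 and 26.9, and 15.2 and 20.6, at D0 and D2. The 4 PPARγ libraries were lower with DMSO (12.8 in WT and 11.7 in K36M cells) than with Rosi (19.8 and 20.2). The log2 ratio of Rosi to DMSO was 0.63 (0.48 to 0.78) in PPARγ WT and 0.79 (0.63 to 0.95) in PPARγ K36M cells, both below the 2-fold threshold.

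*Rb1* (NM_009029, chr14:73583480-73725629, minus strand) encodes the retinoblastoma protein. The RPKM of *Rb1* rose from 2.55 with DMSO to 9.74 with Rosi in PPARγ WT cells, at 257 and 745 reads. This was 3.81-fold, a log2 ratio of 1.93 (1.72 to 2.14), against 0.69 (0.47 to 0.90) in PPARγ K36M cells, where it was 3.41 and 5.48. Over adipogenesis *Rb1* was 5.87, 9.46 and 12.5 in WT and 6.23, 8.30 and 9.12 in K36M cells at D0, D2 and D7, and no step was called. It was 4.56 and 7.26 in Ctrl cells and 9.19 and 10.3 in KD cells at D0 and D2. At D0 KD cells were 2.01-fold above Ctrl cells, with a log2 ratio of 1.01 (0.84 to 1.19) whose interval crosses the threshold. With 0.1 or 1 added to each RPKM it was 0.99 or 0.87 and no longer called. In the GENCODE M1 annotation, exons of *Rb1* overlap exons of *Lpar6* and *Rcbtb2* on the other strand, and whether counting used strand is not given in the sources used here. From DMSO to Rosi in PPARγ WT cells *Lpar6* went from 2.38 to 1.45 and *Rcbtb2* from 6.24 to 10.3.

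*Rbl1* (p107; NM_011249, chr2:156971629-157030270, minus strand) was highest in KD cells at D2. Its RPKM was 7.21 in KD cells at D0 and 22.1 at D2, a 3.06-fold increase with a log2 ratio of 1.61 (1.48 to 1.75). In Ctrl cells it was 9.64 and 14.3, a log2 ratio of 0.57 (0.45 to 0.69). In WT cells it was 9.98, 12.5 and 13.6 and in K36M cells 15.0, 15.3 and 16.3 at D0, D2 and D7. Low values were also found with DMSO and Rosi in PPARγ WT cells, 5.51 and 8.08, and in PPARγ K36M cells, 7.06 and 7.21. *Rbl1* is itself known as an E2F target.

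*Rbl2* (p130; NM_011250, chr8:93593956-93647743, plus strand) is the pocket protein known for quiescent cells. Its RPKM at D0, D2 and D7 was 5.80, 4.37 and 9.83 in WT and 6.27, 8.08 and 13.5 in K36M cells. It was 8.22 and 4.86 in Ctrl cells and 7.48 and 4.42 in KD cells at D0 and D2. The WT, Ctrl and KD libraries at D2 were thus all below their D0 libraries, and the D7 libraries were the highest. The step from D2 to D7 in WT cells was called, with a log2 ratio of 1.17 (0.99 to 1.35), and the other steps were not. With DMSO and then Rosi, *Rbl2* was 5.16 and 5.60 in PPARγ WT cells but 4.35 and 3.34 in PPARγ K36M cells. An exon of *Aktip* overlaps *Rbl2* on the other strand, and *Aktip* was 10.0 and 7.53 in WT cells at D2 and D7.

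*Trp53* (NM_011640, chr11:69393861-69405375, plus strand) was lower at D2 than at D0 in each of the 4 cell populations, by less than 2-fold in each. Its RPKM at D0, D2 and D7 was 76.1, 43.5 and 49.6 in WT and 117, 58.5 and 69.0 in K36M cells. It was 75.3 and 64.1 in Ctrl cells and 106 and 56.1 in KD cells at D0 and D2. K36M and KD cells at D0 were the highest libraries. The log2 ratios from D0 to D2 were -0.81 in WT, -0.996 in K36M (-1.09 to -0.91), -0.23 in Ctrl and -0.91 in KD cells. The value for K36M cells lay just inside the 2-fold threshold, and the other *Trp53* transcript in the files lay just past it. PPARγ WT cells held 80.8 with DMSO and 53.3 with Rosi, and PPARγ K36M cells 77.4 and 78.6.

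*Mdm2* (NM_010786, chr10:117125944-117147814, minus strand), the ubiquitin ligase of p53 and a p53 target, also had its highest values in K36M and KD cells at D0. Its RPKM at D0, D2 and D7 was 69.5, 55.1 and 41.3 in WT and 118, 47.0 and 80.3 in K36M cells. It was 44.1 and 31.0 in Ctrl cells and 97.9 and 52.6 in KD cells at D0 and D2. At D0 KD cells had 2.22-fold more than Ctrl cells, with a log2 ratio of 1.15 (1.08 to 1.22), which at D2 was 0.76 (0.68 to 0.84). In K36M cells *Mdm2* fell 2.52-fold from D0 to D2, a log2 ratio of -1.33 (-1.41 to -1.26). K36M cells exceeded WT cells by 0.77 (0.71 to 0.82) at D0 and 0.96 (0.87 to 1.05) at D7 on the log2 scale, below the threshold. PPARγ WT cells held 53.04 with DMSO and 45.7 with Rosi, and PPARγ K36M cells 69.5 and 60.3.

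**Figure D3:**
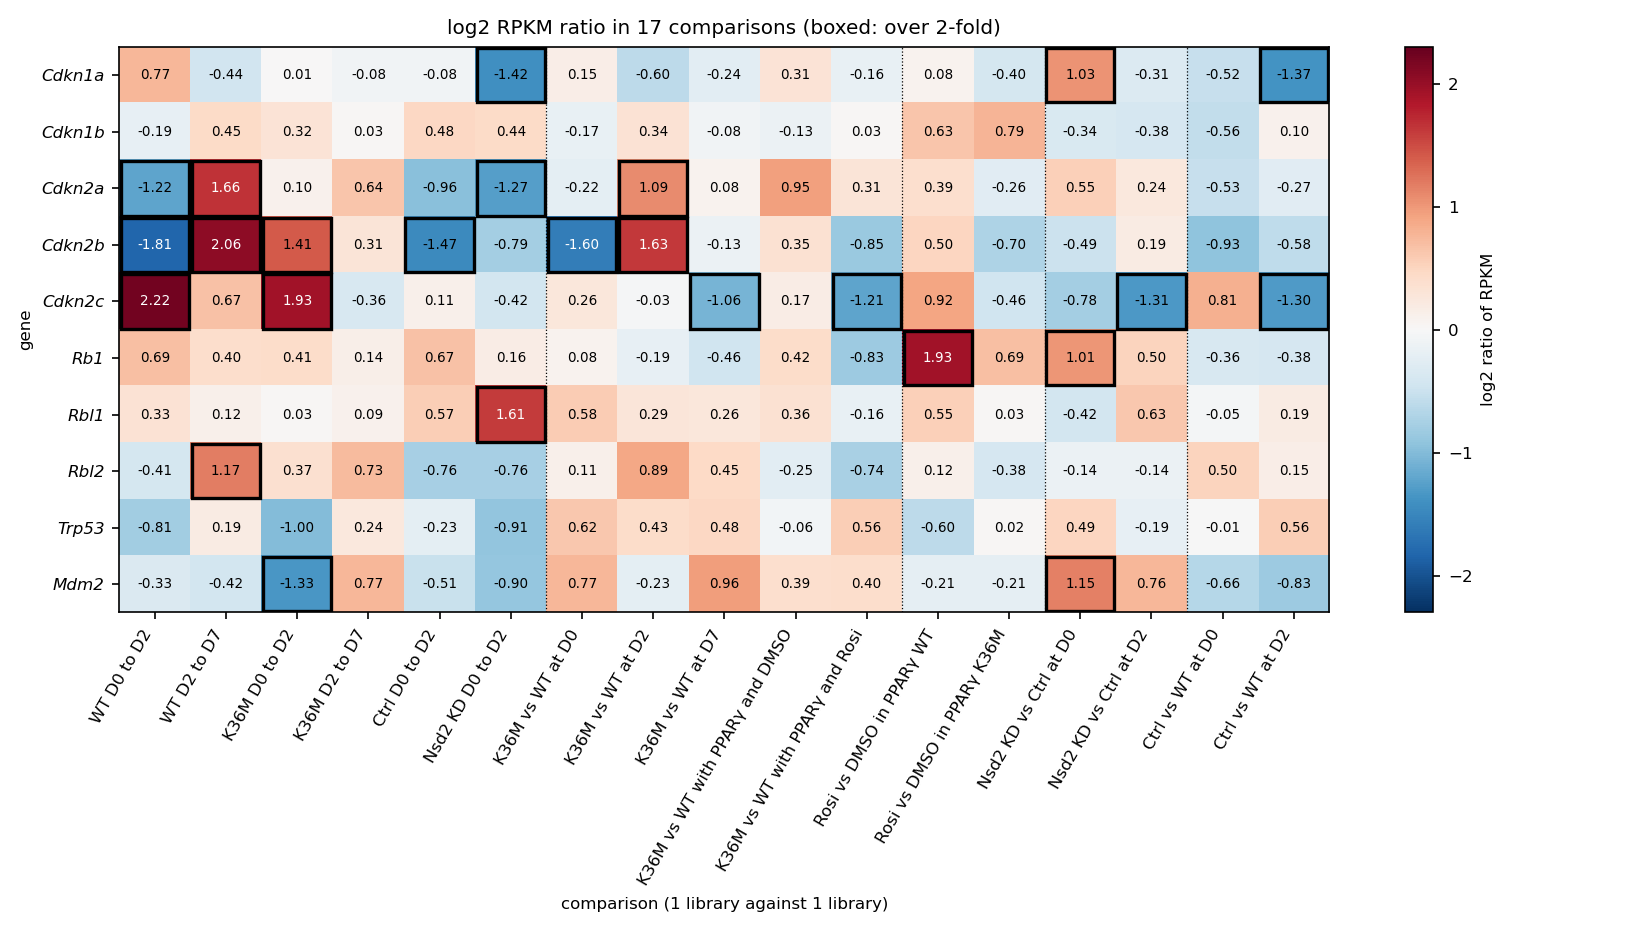
log2 RPKM ratio of each of the 10 genes (rows) in the 17 comparisons (columns), 1 library against 1 library, with red for higher and blue for lower. Boxes mark the 25 ratios over 2-fold of 170, of which 13 are up and 12 down, and *Cdkn2a*, *Cdkn2b* and *Cdkn2c* hold most of them.

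Over the 17 comparisons, 25 of 170 ratios of the 10 genes were called, 13 up and 12 down, and the shares of all genes tested are given beside each count. From D0 to D2 in WT cells 1 was up-regulated (*Cdkn2c*) and 2 were down-regulated (*Cdkn2a* and *Cdkn2b*), where 9.38% of the 12155 genes tested rose and 17.3% fell. In Ctrl cells 0 rose and 1 fell (*Cdkn2b*), against 11.3% and 16.1%. From D0 to D2 in K36M cells 2 rose (*Cdkn2b* and *Cdkn2c*) and 1 fell (*Mdm2*), against 10.2% and 11.2%. In KD cells 1 rose (*Rbl1*) and 2 fell (*Cdkn1a* and *Cdkn2a*), against 11.8% and 16.8%. The median log2 ratio of the 10 genes in these 4 comparisons was -0.26 in WT, 0.21 in K36M, -0.16 in Ctrl and -0.77 in KD cells, and over all genes tested it was -0.01, -0.07, 0.07 and 0.04. From D2 to D7, 3 rose in WT cells (*Cdkn2a*, *Cdkn2b* and *Rbl2*) and 0 fell, against 15.7% and 5.08% of genes. In K36M cells 0 of 10 were called either way between D2 and D7, against 15.7% up and 7.02% down. The medians for D2 to D7 were 0.42 in WT and 0.19 in K36M cells, and over all genes 0.04 and 0.07. The adipocyte and preadipocyte marker sums given above differed between WT and K36M cells at D2 and D7, and their part in these values was not tested.

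Between K36M and WT cells few of the 10 genes passed 2-fold, and those that did were Ink4 genes. At D0, 0 were higher in K36M cells and 1 was lower (*Cdkn2b*), against 5.02% and 6.36% of all genes. The 2 genes higher at D2 were *Cdkn2a* and *Cdkn2b*, with 0 lower, against 11.2% and 4.37%. At D7, 0 were higher and 1 was lower (*Cdkn2c*), against 11.7% and 8.46%. In PPARγ cells with DMSO 0 were called, against 5.09% higher and 3.11% lower. With Rosi 0 were higher and 1 was lower (*Cdkn2c*), against 7.02% and 12.1%. The median absolute log2 ratio of the 10 genes was 0.24 at D0, 0.38 at D2, 0.36 at D7, 0.33 with DMSO and 0.48 with Rosi.

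Between DMSO and Rosi, 1 of the 10 genes passed 2-fold in PPARγ WT cells, and 0 did in PPARγ K36M cells. In WT cells the 1 up-regulated gene was *Rb1*, where 9.96% of genes rose and 5.05% fell. In K36M cells 7.9% of genes rose and 8.85% fell. The median log2 ratio of the 10 genes was 0.44 in WT and -0.23 in K36M cells, against 0.06 and -0.03 over all genes tested. The D0 to D2 values in WT cells and the Rosi values in PPARγ WT cells went in opposite directions for *Cdkn2a* (-1.22 and 0.39) and *Cdkn2b* (-1.81 and 0.50). They also did for *Cdkn1b* (-0.19 and 0.63), with a smaller ratio from D0 to D2. For *Rbl2* the values were -0.41 and 0.12, but the counting interval of the Rosi value (-0.07 to 0.30) included 0.

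*Cdkn1a*, *Mdm2* and *Rb1* were over 2-fold higher in KD than in Ctrl cells at D0. These were 3 of 10 genes up-regulated and 0 down-regulated, against 6.61% and 10.8% of all genes. The counting intervals of *Cdkn1a* (0.98 to 1.08) and *Rb1* (0.84 to 1.19) crossed the 2-fold threshold, and that of *Mdm2* (1.08 to 1.22) did not. At D2, 0 were higher and 1 was lower in KD cells (*Cdkn2c*), against 4.88% and 9.57%. None of the 3 genes higher at D0 was called at D2, where the log2 ratios were -0.31 for *Cdkn1a*, 0.76 for *Mdm2* and 0.50 for *Rb1*. The median absolute log2 ratio of the 10 genes was 0.52 at D0 and 0.35 at D2. With 1 library of each, the effect of 1 shRNA and that of its target cannot be told apart, and the labels do not name the shRNA.

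The control cells of both adipogenesis experiments also differed from each other. Between Ctrl and WT cells the median absolute log2 ratio of the 10 genes was 0.53 at D0 and 0.47 at D2. It was 0.24 and 0.38 for K36M against WT cells and 0.52 and 0.35 for KD against Ctrl cells on these days. These values include shifts shared by all genes. The median log2 ratio over all genes tested was -0.24 at D0 and -0.14 at D2 for Ctrl against WT cells. For K36M against WT cells it was 0.09 and 0.07, and for KD against Ctrl cells -0.002 and -0.05. At D0, 0 of 10 were called, against 7.1% of genes higher in Ctrl cells and 15.1% lower. At D2, 0 were higher and 2 were lower in Ctrl cells, against 4.82% and 6.42%. These were *Cdkn1a*, at 119 against 309 RPKM, a log2 ratio of -1.37 (-1.42 to -1.32), and *Cdkn2c*, at 16.6 against 40.8, a log2 ratio of -1.30 (-1.48 to -1.12). Viral vector, experiment and cell passage cannot be told apart in this comparison.

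**Figure D4:**
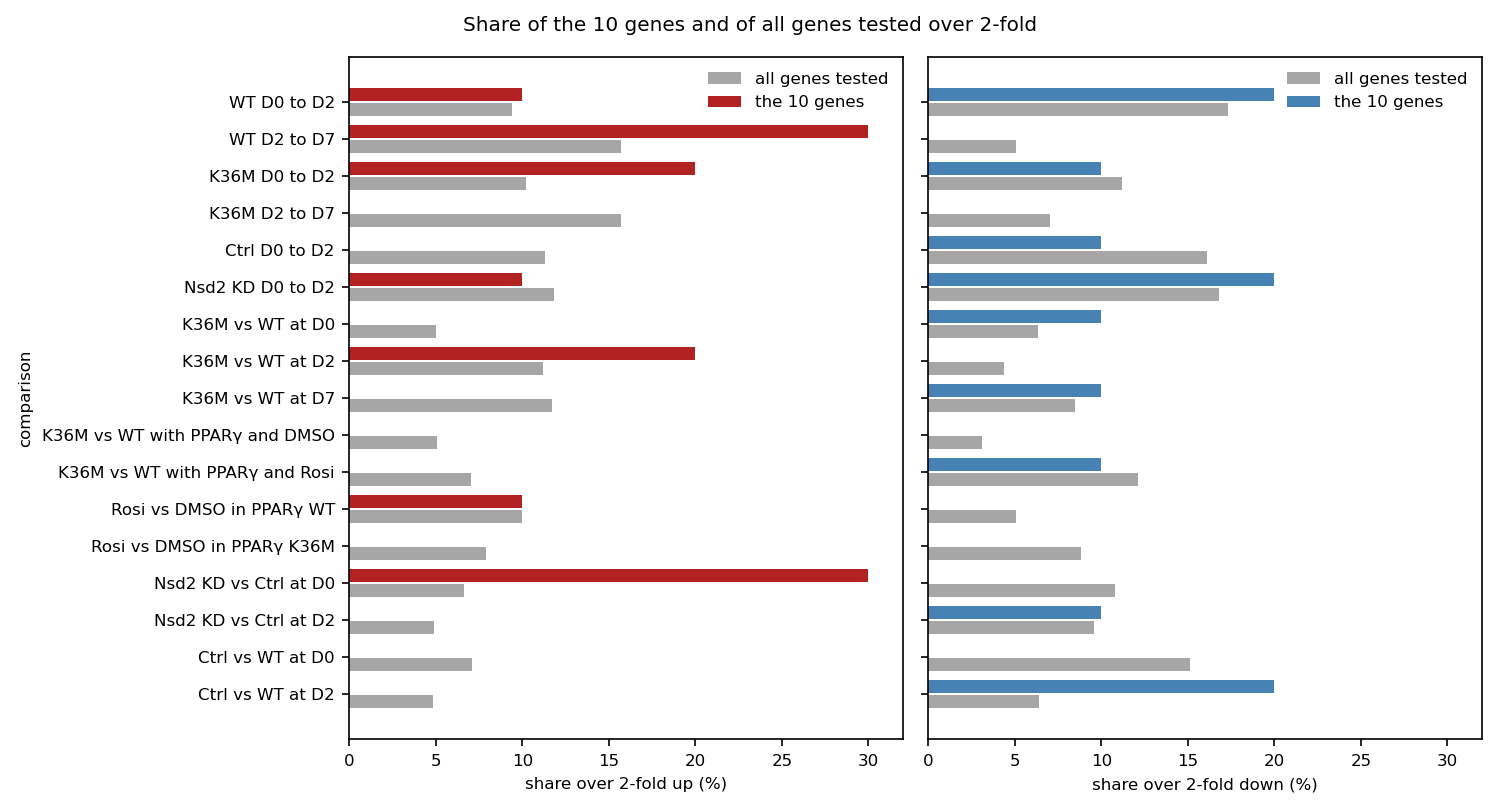
Share (%) of the 10 genes (coloured bars) and of all genes tested (grey bars) over 2-fold up (left) or down (right) in each of the 17 comparisons. With 10 genes, 1 call is 10%, and the longest coloured bars are the 3 genes up from D2 to D7 in WT cells and the 3 genes higher in *Nsd2* KD than in Ctrl cells at D0, where 15.7% and 6.61% of all genes were up.

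The reads of *Cdkn2a* could be set against its 2 transcripts. The files list the p16Ink4a transcript (NM_001040654), whose exons of 207, 341 and 302 bases sum to 850, and the p19Arf transcript (NM_009877), with 286, 341 and 302 bases that sum to 929. Exons 2 and 3 are the same in both. How reads of shared exons were counted is not given in the sources used here. If each was counted for both transcripts, the difference in reads between the transcripts is the reads of exon 1β less those of exon 1α, and the limits below hold only then. In WT cells at D0, D2 and D7 the p19Arf transcript had 282, 234 and 202 reads more than the p16Ink4a transcript. In K36M cells the difference was 172, 272 and 256. The p19Arf transcript thus had more reads in each of these libraries, but its exon 1β is longer than exon 1α, 286 against 207 bases. Per length the order varied. The RPKM of the p16Ink4a transcript was 229, 90.5 and 313 in WT and 199, 198 and 325 in K36M cells at D0, D2 and D7. That of the p19Arf transcript was 224, 96.0 and 303, and 192, 205 and 320. The differences were 146 and 148 in PPARγ WT cells, 492 and 98 in PPARγ K36M cells with DMSO and Rosi, 370 and 260 in Ctrl cells, and 592 and 363 in KD cells at D0 and D2. Under that counting they set a lower limit on the RPKM of exon 1β alone, which was 46.1, 42.8 and 53.03 in WT and 30.3, 75.9 and 73.3 in K36M cells. This limit was 118.8 in KD and 65.5 in Ctrl cells at D0, and 71.9 and 45.1 at D2. How much exon 1α RNA was present cannot be read from these values. The limit moves with exon 1α as well as with exon 1β, so its differences between libraries do not give the change of either. This holds for its 46.1 and 42.8 in WT cells at D0 and D2, where the whole transcript had 224 and 96.0.

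**Figure D5:**
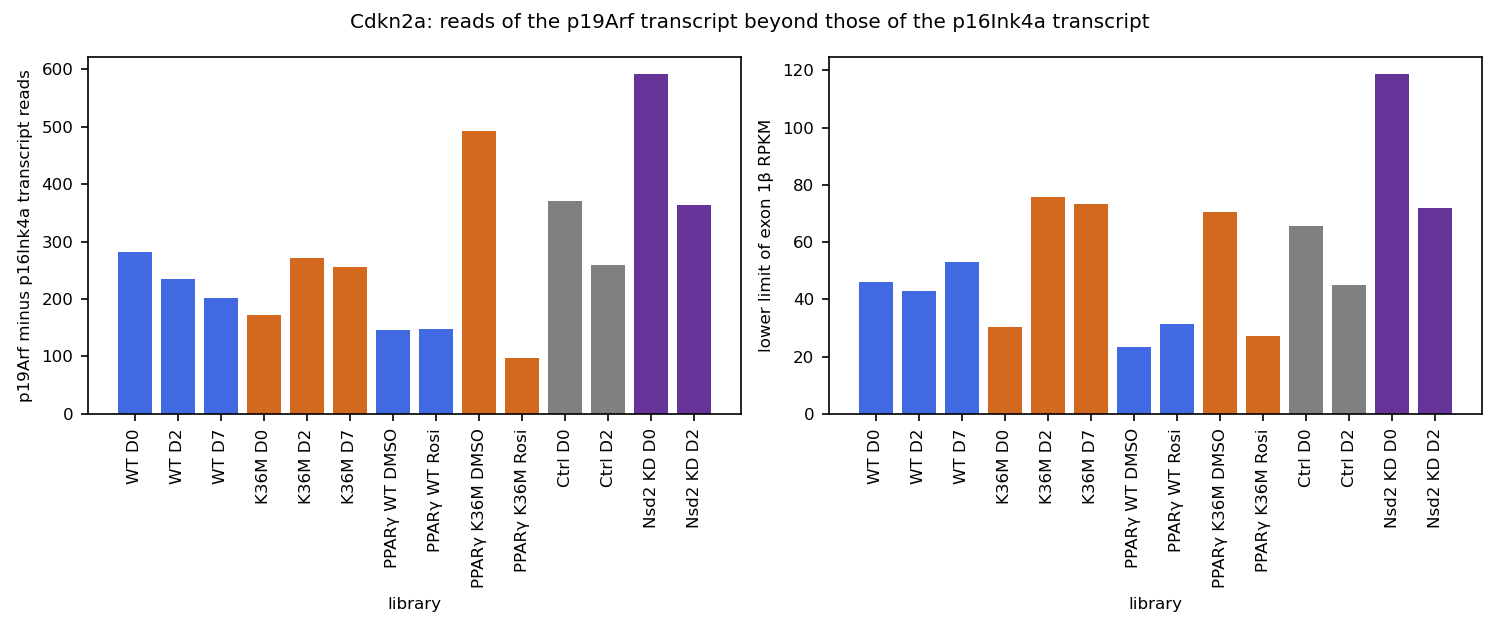
Reads of the p19Arf transcript of *Cdkn2a* less those of the p16Ink4a transcript (left) and the lower limit they set on the RPKM of exon 1β if reads of shared exons were counted for both (right) in the 14 libraries, 1 bar per library. Blue bars are WT, orange K36M, grey Ctrl and purple *Nsd2* KD cells. Every bar is above 0, from 98 to 592 reads and from 23.5 to 118.8 RPKM, and exon 1β is longer than exon 1α.

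The Cdk inhibitor genes outside the 10 were *Cdkn1c* (p57) and *Cdkn2d* (p19Ink4d). *Cdkn1c* was 2.82, 6.79 and 44.0 RPKM in WT cells at D0, D2 and D7 and 2.12, 1.17 and 2.41 in K36M cells. It thus rose at both steps in WT cells, and at D7 K36M cells had a log2 ratio of -4.19 to WT cells. With Rosi it went from 7.58 to 32.9 in PPARγ WT cells and from 7.31 to 36.3 in PPARγ K36M cells. In KD cells it was 3.83 at D0 and 0.684 at D2, against 2.29 and 3.41 in Ctrl cells. *Cdkn2d* was at or below 0.190 in each library.

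Among 12 G1 cyclins and Cdks, the cyclin D1 gene *Ccnd1* was down-regulated at D2 in all 4 cell populations. Its RPKM went from 23.9 to 1.88 in WT, from 52.0 to 7.97 in K36M, from 17.6 to 0.928 in Ctrl and from 20.6 to 1.21 in KD cells. Of the 12 genes, 0 rose and 2 fell from D0 to D2 in WT cells, 1 rose and 2 fell in K36M cells, and 1 rose and 1 fell in both Ctrl and KD cells, where between 9.38% and 11.8% of all genes rose and between 11.2% and 17.3% fell. With Rosi *Ccnd1* went from 23.7 to 2.90 in PPARγ WT cells and from 46.2 to 9.61 in PPARγ K36M cells. *Cdk6* fell with *Ccnd1* in WT and K36M cells, to 2.33 and 1.42 RPKM.

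Among genes downstream of the pocket proteins, the highest count over 2-fold from D0 to D2 was in KD cells. Of 22 E2F target and proliferation genes, 3 rose and 0 fell from D0 to D2 in WT cells (*Rrm2*, *Tk1* and *Cdc45*), 1 rose in K36M cells (*Tk1*), 1 rose and 1 fell in Ctrl cells (*Cdt1* and *Mki67*), and 6 rose and 0 fell in KD cells. The shares of all genes that rose were 9.38%, 10.2%, 11.3% and 11.8% in this order. The median log2 ratio of the 22 was 0.43, -0.36, 0.40 and 0.66, beside -0.01, -0.07, 0.07 and 0.04 over all genes tested. *Tyms*, which makes thymidylate, went from 7.62 to 18.5 RPKM in KD cells, in which *Rbl1* had risen too. At D0, K36M cells had 6 of the 22 higher and 0 lower than WT cells had, against 5.02% and 6.36% of all genes, with *Cdc6* at 8.63 against 3.01. The median log2 ratio of the 22 was 0.75 there, beside 0.09 over all genes tested. At D0, 0 of the 22 were called higher and 3 lower in KD than in Ctrl cells, against 6.61% and 10.8% of all genes, with *Ccna2* at 13.8 against 53.3. The list did not move as a whole there, since its median log2 ratio was -0.12, 10 of the 22 ratios were above 0 and 12 below, and those of the 6 *Mcm* genes of the replication helicase, chosen after their values were seen, lay between 0.08 and 0.96. Ctrl cells themselves had 7 of the 22 above WT cells at D0, against 7.1% of all genes, with *Tk1* at 40.8 against 7.07. Of the 16 E2F, DP and DREAM complex genes, 2 rose in WT, 0 in K36M, 1 in Ctrl and 4 in KD cells from D0 to D2, with 0 falling in each. *E2f2* rose to 5.16 in KD cells at D2, from 0.860 at D0.

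Genes known as p53 targets, other than the members, moved in both directions. Of those passing the RPKM filter from D0 to D2, 3 rose and 6 fell of 26 in WT cells, 2 rose and 7 fell of 27 in K36M cells, 4 rose and 6 fell of 26 in Ctrl cells, and 5 rose and 9 fell of 27 in KD cells. Over all genes 9.38%, 10.2%, 11.3% and 11.8% rose and 17.3%, 11.2%, 16.1% and 16.8% fell. The median log2 ratio of these targets was -0.12 in WT, -0.45 in K36M, -0.32 in Ctrl and -0.50 in KD cells. *Fas*, a death receptor gene, went from 18.4 to 2.50 RPKM in WT, from 7.97 to 1.64 in Ctrl and from 10.7 to 1.07 in KD cells, whereas in K36M cells it went from 4.27 to 3.01 and was not called. *Gadd45a*, a growth arrest gene, went from 7.07 to 92.0 in Ctrl and from 4.41 to 66.2 in KD cells. It went the other way in K36M cells, from 161 to 79.4, and was 139 and 131 in WT cells. In KD cells at D0, where *Cdkn1a* and *Mdm2* were higher, 5 of 27 others were higher and 2 lower than in Ctrl cells, against 6.61% and 10.8% of all genes, with a median log2 ratio of 0.50 beside -0.00 over all genes. The largest change among them was that of *Perp*, a p53 target of cell adhesion, at 3.35 in KD and 0.0799 in Ctrl cells. In that Ctrl library 3 reads of a 1 kb transcript would give 0.152, so the size of this change is uncertain. The next largest change went the other way, since *Dram1* was over 2-fold lower in KD than in Ctrl cells. Ctrl cells themselves were low for this list at D0. Of 26 targets passing the filter, 0 were above and 11 below WT cells, against 7.1% and 15.1% of all genes. The median log2 ratio of Ctrl to WT cells was -0.77 for these targets, beside -0.24 over all genes tested. *Perp* was 3.92 in K36M and 0.689 in WT cells at D0, and 5.42 in K36M and 0.411 in WT cells with PPARγ and DMSO. Of the 10 p53 regulators passing the filter, *Hipk2*, a p53 kinase gene, was lower with K36M than with WT histone at D2 (26.3 against 80.0), at D7 (18.3 against 44.2) and with Rosi (9.15 against 27.6). It was the 1 gene of that list called in each of these comparisons, where 4.37%, 8.46% and 12.1% of all genes were over 2-fold lower. The same held for KD against Ctrl cells at D2 (23.2 against 47.0), where 9.57% of all genes were over 2-fold lower. At D0 *Hipk2* was 20.8 in K36M and 23.7 in WT cells and was not called.

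The genes whose pattern was most like that of each member were found by the Pearson correlation of log2(RPKM + 1) over the 14 libraries among 8295 genes that reached an RPKM of 5 in 7 or more libraries. These correlations are descriptions, since the libraries share cell lines and experiments. The highest were *Rnasek* for *Cdkn1a* (r = 0.84), *AW549877* for *Cdkn1b* (0.956), *Bhlhe40* for *Cdkn2a* (0.912), *Ehbp1* for *Cdkn2b* (0.948) and *Sdhc* for *Cdkn2c* (0.946). For the others they were *Dcaf8* for *Rb1* (0.91), *Mfsd14b* for *Rbl1* (0.972), *Zer1* for *Rbl2* (0.961), *Zfp57* for *Trp53* (0.914) and *Top1mt* for *Mdm2* (0.891). No member was among the first 3 of another, so the neighbours *Cdkn2a* and *Cdkn2b* were each more like other genes than like each other.

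The promoters of 9 members were matched in RefSeq sequences (GRCm38.p6) of 250 bases before and 50 after a start site, 12 promoters in all. The letters TTTCCCGC, TTTCGCGC, TTTGCCGC and TTTGGCGC, which E2F factors are known to bind, were searched on both strands. They were found in 2 of the 12, at 18 bases before the start of *Rbl1* and 99 before the upstream start of *Cdkn2a*, and 2.26% of 32851 promoters of that length hold them. The matches are shown in capitals because *Rbl1* was the member that rose in KD cells together with E2F target genes, and the upstream start of *Cdkn2a* is that of p19Arf. *Rbl1* was read at chr2:157204535-157204562 and *Cdkn2a* at chr4:89294701-89294728, both on the minus strand.
Rbl1: agaaggcgatTTTCGCGCgctttgtcgc
Cdkn2a: tctgggaagcTTTCCCGCgcgactgggg
A match is a description of the letters and not a bound site.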

How the data were processed

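RNA-Seq was analysed in 14 of the 34 samples of the series, 1 library per condition, and the ChIP-Seq samples were not analysed here. The authors purified mRNA, made libraries, and deposited RPKM values for 29082 RefSeq transcripts per library. The program that mapped and counted these reads, any filter on low values, and the use of strand are not given in the sources used here. The submitters' processing notes name CASAVA 1.8.2, mm9 and SICER, with SICER described for ChIP-Seq. A symbol was found for 28436 transcripts (97.8%) in RefSeq gene tables of GRCm38.p6, used for names only. Where a gene had several transcripts, the one highest on average over the 14 libraries was used. Coordinates are those of GENCODE M1 on mm9.

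Whole reads were recovered for 26945 of the 26946 transcripts detected in 2 or more libraries, which gave each library's depth. Recovery and intervals were tested on simulated data. Ratios are of deposited RPKM without a pseudocount, and the 95% intervals come from the Clopper-Pearson method applied to both libraries' reads. The floor of 3 reads played no part in calls. Without replicates, no test between conditions was made. Alternatives were other filters, pseudocounts of 0.1 and 1, rescaling by the median ratio, the other RefSeq transcript, and a threshold of 1.5-fold. The genes and all lists were chosen with earlier results of these data known. Of the other lists, at most 4 genes with the largest ratio over 2-fold were named per comparison. *Fas*, *Gadd45a*, *Perp*, *Cdkn1c*, *Cdk6*, *Hipk2* and *Ccnd1* values in further libraries follow from that rule. *Lpar6*, *Rcbtb2* and *Aktip* were added for overlapping exons after the annotation was read. Python 3.11.15, numpy 2.4.6, scipy 1.17.1, pandas 2.3.3 and matplotlib 3.10.9 were used.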

Additional observations from a re-analysis of the deposited data

Results flagged for a closer look

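Some genes changed in opposite directions in a pair of cell populations, days or treatments, with counting intervals that excluded 0 on both sides. Each side is 1 library against 1 library, the difference between both sides was not tested, and all values are log2 ratios of RPKM. From D0 to D2, in WT and then K36M cells, the ratios were -0.19 and 0.32 for *Cdkn1b*, -1.22 and 0.10 for *Cdkn2a*, -1.81 and 1.41 for *Cdkn2b*, and -0.41 and 0.37 for *Rbl2*. With the p16Ink4a transcript of *Cdkn2a* in place of the p19Arf transcript the pair was -1.34 and -0.0067, so its opposite direction was lost. From D2 to D7 they were 0.67 and -0.36 for *Cdkn2c* and -0.42 and 0.77 for *Mdm2*. Rosi gave, in PPARγ WT and then PPARγ K36M cells, 0.075 and -0.40 for *Cdkn1a*, 0.39 and -0.26 for *Cdkn2a*, 0.50 and -0.70 for *Cdkn2b*, and 0.92 and -0.46 for *Cdkn2c*.

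K36M against WT cells gave, at D0 and then D2, 0.15 and -0.60 for *Cdkn1a*, -0.17 and 0.34 for *Cdkn1b*, -0.22 and 1.09 for *Cdkn2a*, -1.60 and 1.63 for *Cdkn2b*, and 0.77 and -0.23 for *Mdm2*. At D7 the ratio was -0.13 for *Cdkn2b*, opposite to D2, and 0.96 for *Mdm2*, also opposite to D2. With PPARγ, K36M against WT cells gave, with DMSO and then Rosi, 0.31 and -0.16 for *Cdkn1a*, 0.35 and -0.85 for *Cdkn2b*, and 0.42 and -0.83 for *Rb1*. KD against Ctrl cells gave, at D0 and then D2, 1.03 and -0.31 for *Cdkn1a*, -0.42 and 0.63 for *Rbl1*, and 0.49 and -0.19 for *Trp53*. Of these pairs, only those of *Cdkn2b* at D0 to D2 and for K36M against WT at D0 and D2 were over 2-fold on both sides. The pairs that share a library, such as the time course and the comparison at D2, are not independent of each other.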

How the results depend on the processing

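None of the 25 called ratios changed sign under rescaling, a pseudocount of 0.1 or 1, or the other RefSeq transcript, but this is no check of the calls. A pseudocount added to both libraries cannot reverse a sign. The largest moves under rescaling and with the other transcript were 0.239 and 0.227 on the log2 scale, where a call lies beyond 1. Of the ratios that were not called, 5 changed sign under rescaling, 4 with the other transcript and 0 with either pseudocount. In 2 of these the interval had excluded 0, for *Cdkn2a* in K36M against WT at D7 (0.078, and -0.041 rescaled) and from D0 to D2 in K36M cells (0.096, and -0.0067 with the other transcript). The others were *Rbl1* in 4 comparisons, 1 of them under both settings, *Trp53* and *Cdkn1b*. Of the 25 calls, rescaling lost 0 and added 2 (*Cdkn2a* from D0 to D2 in Ctrl cells and *Cdkn2c* for Ctrl against WT at D0), each pseudocount lost 1 (*Rb1* for KD against Ctrl at D0), and the other transcript lost 0 and added 2 (*Cdkn2a* from D0 to D2 in Ctrl and *Trp53* from D0 to D2 in K36M cells). The count of called genes became 2 in Ctrl cells from D0 to D2 under both rescaling and the other transcript, and 1 for Ctrl against WT at D0 under rescaling, which shifted that comparison by 0.239 on the log2 scale. A threshold of 1.5-fold, by its construction, raised the counts from D0 to D2 to 6 in WT, 4 in Ctrl and 7 in KD cells and from D2 to D7 in K36M cells to 3. For K36M against WT it gave 3 at D0, 4 at D2, 2 at D7, 1 with DMSO and 4 with Rosi. It gave 4 for Rosi in WT and 3 in K36M cells, 3 for KD against Ctrl at D2, and 3 for Ctrl against WT at D0. The other filters could not change a count, since all 10 genes had an RPKM of at least 1 in each library. The demand that the interval exclude a ratio of 1 changed no count either, since the intervals of all 25 calls excluded it. No paired analysis was possible because each condition is 1 library without a replicate number, and for the same reason no replicate could be left out. Depth was not the limit for these genes, since the fewest reads were 127.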
